A study of Mus musculus with 16 samples.

Results

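The 9 genes described here encode transcription factors of the interneuron lineage: Lhx6, Dlx1, Dlx2, Dlx5, Dlx6, Sox6, Satb1, Maf and Nr2f2. They were chosen by name, out of the 55385 genes in each table, for their known role, by a rule that uses no measured value. All 9 were among the 17222 genes with enough counts to be tested. RNA came from primary hippocampal cultures of newborn C57Bl/6N mice, which mix neurons and glia, infected with recombinant adeno-associated virus. The virus carried either a Control-shRNA or an shRNA against Dnmt3a1, the longer isoform of the DNA methyltransferase Dnmt3a. The cultures were left in baseline or treated for 4 h with bicuculline, a blocker of GABA-A receptors that raises network activity. Each of the 4 combinations had 4 libraries, 16 in all. A single shRNA sequence stood for the knockdown, so an effect of Dnmt3a1 and an effect of that sequence cannot be told apart.

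Cortical and hippocampal interneurons arise in the ventral forebrain. There the homeodomain factors Dlx1 and Dlx2 act early in the progenitors and switch on Dlx5 and Dlx6, and together the Dlx factors drive genes of GABA synthesis such as Gad1 and Gad2. Lhx6 marks cells from the medial ganglionic eminence, which become parvalbumin and somatostatin interneurons, and Sox6, Satb1 and Maf act with or after Lhx6 in those cells. Nr2f2, also called COUP-TFII, is typical of cells from the caudal ganglionic eminence. Sox6, Satb1, Maf and Nr2f2 are also expressed in other cells of the brain. In mature interneurons many of these factors remain expressed and help to maintain cell identity.

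The 4 Dlx genes lie in 2 convergent pairs. On GRCm38, Dlx1 (ENSMUSG00000041911.3) spans chr2:71528113-71533981 on the plus strand and Dlx2 (ENSMUSG00000023391.8) chr2:71543408-71546754 on the minus strand, 9427 bp apart. Dlx6 (ENSMUSG00000029754.13) spans chr6:6863334-6868568 on the plus strand and Dlx5 (ENSMUSG00000029755.10) chr6:6877805-6882085 on the minus strand, 9237 bp apart. Antisense transcripts overlap both pairs, Dlx1as at Dlx1 and Dlx6os1 and Dlx6os2 at Dlx6. The stretch of coding sequence below shows how far the 4 paralogs can be told apart by their reads. It is the same 60-base window of the homeobox in each gene (GENCODE M21 transcripts on GRCm38), and capitals mark the bases that differ from Dlx5.
Dlx5: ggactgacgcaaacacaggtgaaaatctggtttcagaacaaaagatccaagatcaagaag
Dlx6: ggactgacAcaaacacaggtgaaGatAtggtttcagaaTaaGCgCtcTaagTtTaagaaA
Dlx1: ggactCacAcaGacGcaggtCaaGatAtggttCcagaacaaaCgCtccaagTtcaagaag
Dlx2: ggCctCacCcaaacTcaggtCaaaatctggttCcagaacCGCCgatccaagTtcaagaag
Dlx6, Dlx1 and Dlx2 each differed from Dlx5 at 11 of the 60 positions. Over whole transcripts, none of the 2259 31-base words of Dlx5 occurred in any other gene, on either strand. Of the 14869 words of Sox6 likewise none occurred elsewhere. The shares were 0.0708% for Dlx2, 1.34% for Satb1, 2.12% for Lhx6, 5.38% for Maf, 5.84% for Dlx1, 8.12% for Nr2f2 and 9.80% for Dlx6. Most of the shared words of Dlx1 (308) were those of Dlx1as, and most of those of Nr2f2 (613) were those of its antisense neighbour B130024G19Rik. Of those of Maf 386 belonged to the antisense transcript Gm15655, and of those of Dlx6 48 belonged to Dlx6os2 and 0 to Dlx6os1. Reads from these overlaps cannot be assigned without strand, which is not stated for these libraries, so the values of Dlx1, Nr2f2, Maf and, for fewer words, Dlx6 carry that uncertainty.

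The promoter windows of Dlx1 and Nr2f2, the 2 members that rose with bicuculline, are shown because they differ in CpG content, the substrate of DNA methyltransferases. Windows were taken from RefSeq on GRCm38.p6, from 250 bases before to 50 after the annotated start, and CpG dinucleotides are in capitals. Of the 9 members 6 had a window, and Dlx5, Dlx6 and Maf had none. Neither Dlx1 nor Nr2f2 was called for the Dnmt3a1-shRNA. The Dlx1 window lies inside the gene span given above, so it is not at the outermost annotated start.
Dlx1, chr2:71529195-71529494, plus strand: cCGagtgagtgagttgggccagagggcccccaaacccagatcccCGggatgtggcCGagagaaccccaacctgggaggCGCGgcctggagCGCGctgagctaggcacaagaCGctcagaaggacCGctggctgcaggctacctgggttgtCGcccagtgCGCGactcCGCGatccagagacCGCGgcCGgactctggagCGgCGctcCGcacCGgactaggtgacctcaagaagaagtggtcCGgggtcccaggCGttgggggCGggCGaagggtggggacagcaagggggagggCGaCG
Nr2f2, chr7:70366697-70366996, minus strand: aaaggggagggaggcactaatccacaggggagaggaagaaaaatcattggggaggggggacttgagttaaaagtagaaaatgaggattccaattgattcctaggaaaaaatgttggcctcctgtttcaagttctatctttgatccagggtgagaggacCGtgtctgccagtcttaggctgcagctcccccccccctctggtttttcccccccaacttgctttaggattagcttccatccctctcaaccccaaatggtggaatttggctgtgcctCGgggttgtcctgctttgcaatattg
The Dlx1 window held 27 CpG and the Nr2f2 window 2, against a median of 7 over all 32851 windows. That Nr2f2 window covers the outermost annotated start of a gene with 6 annotated transcripts, and no other Nr2f2 window was available. Windows of the same gene can differ widely, from 3 to 45 CpG for Satb1, so the value need not hold for other starts of Nr2f2. Neither window held TGACGTCA, the full cAMP response element, on either strand, and 1.79% of all windows did. Methylation was not measured here, and nothing about a factor's binding follows from these letters.

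The libraries held 28912697 to 29586355 counts each, and mitochondrial transcripts took 2.73% to 6.60% of them. The knockdown was checked first. Dnmt3a was 312 ± 13.8 CPM (counts scaled to a common library total by the trimmed mean of M-values, TMM; SD, n = 4) with Control-shRNA in baseline and 44.5 ± 3.66 with Dnmt3a1-shRNA, which edgeR's quasi-likelihood test put at -2.81 on the log2 scale (standard error, SE, 0.06, adjusted p = 8.86e-15). With bicuculline it was 327 ± 11.8 and 45.3 ± 1.72. The 3 defining markers of GABAergic neurons, Gad1, Gad2 and Slc32a1, were all present, so the cultures held the cells in which the 9 factors are known to act. Their level was summed in TPM, which scales a transcript for its length and for the library total. In baseline the sum was 877 to 1002 with Control-shRNA and 560 to 742 with Dnmt3a1-shRNA. With bicuculline it was 1121 to 1268 and 840 to 986, with no overlap between the shRNAs in either condition. In CPM, the scale used here to compare groups, the libraries of the shRNAs overlapped for each of the 3 genes in both conditions. The separation was therefore seen in TPM and not in the CPM of the single genes. In TPM Gad1 alone was at 557 to 640 with Control-shRNA and 312 to 456 with Dnmt3a1-shRNA in baseline. With bicuculline it was at 747 to 820 and 523 to 617. Gad2 overlapped with bicuculline also in TPM, at 146 to 198 and 124 to 156. Tested singly, Gad1 had a log2 fold change of -0.42 (adjusted p = 0.0267) and Gad2 one of -0.31 (adjusted p = 0.182) for the knockdown in baseline, and Slc32a1 one of -0.12 (adjusted p = 0.181), all within the fold threshold described below. In RNA of a whole culture, fewer cells of a type and less RNA per cell cannot be told apart.

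Per transcript length, the 9 factors spanned a wide range of levels. In Control-shRNA libraries in baseline Dlx1 was highest at 101.7 ± 11.1 TPM (SD, n = 4), with Lhx6 next at 78.3 ± 2.53. Satb1 (43.0 ± 7.41), Nr2f2 (30.99 ± 1.44) and Maf (24.5 ± 0.70) formed the middle of the order. Dlx5 (19.7 ± 2.21), Dlx6 (16.8 ± 2.54), Dlx2 (13.3 ± 0.94) and Sox6 (8.61 ± 2.38) were lowest. The libraries of neighbours in this order overlapped for Dlx5 with Dlx6 and for Dlx6 with Dlx2, and for no other neighbours. Within the Dlx1 and Dlx2 pair the level was uneven: Dlx1 had 7.65 ± 0.95 times the TPM of Dlx2. Within the Dlx5 and Dlx6 pair it was close to even, with a ratio of 1.19 ± 0.17. In counts, the quantity that sets the precision, the members had their lowest values in Dlx5, with 148 to 414 counts per library over the 16 libraries, and Dlx6, with 202 to 330, and their highest in Dlx1, with 2379 to 4160. Dlx6 was the lower of the first pair in all 8 Control-shRNA libraries and Dlx5 in all 8 Dnmt3a1-shRNA libraries.

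**Figure D1:**
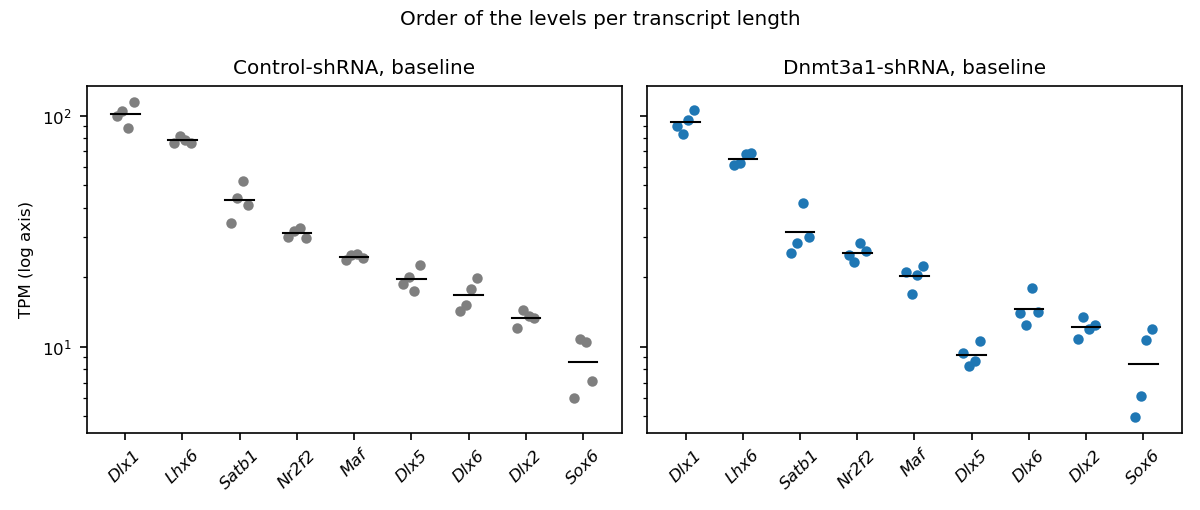
Level of the 9 factors per transcript length (TPM, log axis) in baseline, with Control-shRNA on the left and Dnmt3a1-shRNA on the right; each point is 1 library, the line is the mean of 4, and genes keep the order of the Control-shRNA means. Dlx5 took place 6 at 19.7 TPM with Control-shRNA and lay at 9.22 TPM with Dnmt3a1-shRNA, next to Sox6.

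The effect of the Dnmt3a1-shRNA on the lineage factors was next compared within each condition. Of the 9 factors Dlx5 was the only member that fell past both thresholds, an adjusted p under 0.05 over all tested genes and an absolute log2 fold change over 0.5, and it did so in baseline and with bicuculline. No member rose. In baseline 4.07% of all tested genes were called lower and 1.76% higher, and with bicuculline 3.9% and 2%. A count of 1 of 9 stands on few genes beside that background.

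Dlx5, which acts downstream of Dlx1 and Dlx2 in the differentiation of GABAergic neurons, had 11.9, 11.8, 9.55 and 13.4 CPM in the 4 Control-shRNA libraries in baseline and 6.54, 5.36, 5.02 and 6.67 CPM in the 4 Dnmt3a1-shRNA libraries. The highest knockdown library lay below the lowest control library. The log2 fold change was -0.98 (SE 0.12, 95% interval -1.24 to -0.73, adjusted p = 2.64e-05), which left 50.6% of the control level. With bicuculline Dlx5 had 13.8, 12.4, 11.1 and 11.96 CPM in the control libraries and 5.86, 6.55, 5.31 and 6.46 CPM in the knockdown libraries. Again the groups did not overlap, and the log2 fold change was -1.03 (SE 0.12, 95% interval -1.28 to -0.77, adjusted p = 1.58e-05). Leaving out any 1 library kept the call, with values between -1.07 and -0.91 in baseline and between -1.07 and -0.97 with bicuculline.

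The neighbours of Dlx5 in the Dlx family did not pass the test. Dlx6, its partner on chromosome 6, had 6.78, 7.22, 7.94 and 8.53 CPM with Control-shRNA in baseline and 7.10, 6.67, 6.92 and 7.51 CPM with Dnmt3a1-shRNA, a log2 fold change of -0.11 (95% interval -0.33 to 0.11, adjusted p = 0.52). The libraries of the 2 groups overlapped. The corresponding value with bicuculline was -0.12 (95% interval -0.34 to 0.09). Dlx1 had a knockdown value of -0.06 (95% interval -0.30 to 0.18) in baseline and 0.02 (-0.21 to 0.26) with bicuculline, and Dlx2 values of -0.00 (-0.18 to 0.18) and 0.04 (-0.14 to 0.21). Each of these intervals lay wholly above the upper end of the Dlx5 interval in the same condition. The antisense transcripts had intermediate values that missed the threshold, -0.38 for Dlx6os1 (adjusted p = 0.10) and -0.41 for Dlx1as (adjusted p = 0.0825) in baseline.

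Ratios within a library, which no scaling between libraries can move, showed the same contrast. The TPM of Dlx5 relative to Dlx6 was 0.974 to 1.33 in the Control-shRNA libraries in baseline and 0.483 to 0.749 in the Dnmt3a1-shRNA libraries. With bicuculline it was 0.816 to 1.05 and 0.431 to 0.517. Relative to Lhx6, Dlx5 stood at 0.252 ± 0.031 and 0.142 ± 0.015 in baseline (SD, n = 4), and at 0.240 ± 0.025 and 0.128 ± 0.015 with bicuculline. Relative to Gad2, the enzyme that makes GABA at the synapse, Dlx5 was at 0.148 to 0.190 and 0.0926 to 0.111 in baseline and at 0.0902 to 0.126 and 0.0477 to 0.0658 with bicuculline. In each of these ratios the 2 shRNA groups did not overlap. In the order of TPM levels Dlx5 moved from place 6 with Control-shRNA to place 8 of 9 with Dnmt3a1-shRNA in baseline, and from place 7 to place 9 with bicuculline. In both conditions its libraries overlapped those of Dlx6 with Control-shRNA and those of Sox6 with Dnmt3a1-shRNA.

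Among the factors that act with or after Lhx6, Satb1 had the largest knockdown value. Satb1, a chromatin organizer needed for the maturation of somatostatin interneurons, had 84.5, 93.9, 107.6 and 95.8 CPM in the Control-shRNA libraries in baseline and 67.4, 67.6, 89.9 and 72.3 CPM in the knockdown libraries. The groups overlapped through 1 high knockdown library. The log2 fold change was -0.36 (SE 0.10, 95% interval -0.58 to -0.14, adjusted p = 0.0245), which passed the adjusted p but not the fold threshold. By the adjusted p alone 2 of 9 members were lower in baseline (8.19% of all genes), and 1 of 9 with bicuculline (9.99%). With bicuculline Satb1 was at -0.30 (95% interval -0.52 to -0.08, adjusted p = 0.059). A fit with the replicate number as a block put 3 members below the adjusted p in baseline (Dlx5, Satb1 and Nr2f2, beside 12.9% of all genes) and 4 with bicuculline (Lhx6, Dlx5, Satb1 and Maf, beside 15.3%). The adjusted p in baseline ran from 0.00382 to 0.0873 as single libraries were left out. In all 4 groups the library of replicate 3 held the most Satb1, from 89.9 to 119 CPM.

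The remaining members had small knockdown values that missed the threshold. Lhx6, the factor that specifies cells of the medial ganglionic eminence, had 94.2 to 111 CPM with Control-shRNA and 92.7 to 106 CPM with Dnmt3a1-shRNA in baseline, a log2 fold change of -0.09 (95% interval -0.23 to 0.06). Its value with bicuculline was -0.13 (-0.28 to 0.01). Maf, which promotes somatostatin interneuron fates, stood at -0.16 (-0.34 to 0.02) and -0.20 (-0.38 to -0.02, adjusted p = 0.109). Sox6, which positions and matures the Lhx6 cells, stood at 0.09 (-0.19 to 0.38) and -0.01 (-0.30 to 0.27), with the widest intervals of the members. In baseline Nr2f2 spanned 43.4 to 45.7 CPM in the control libraries and 35.5 to 43.1 CPM in the knockdown libraries. Those 2 groups did not overlap, yet the log2 fold change of -0.19 had an adjusted p of 0.0834, and the value with bicuculline was 0.05 (-0.10 to 0.21).

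**Figure D2:**
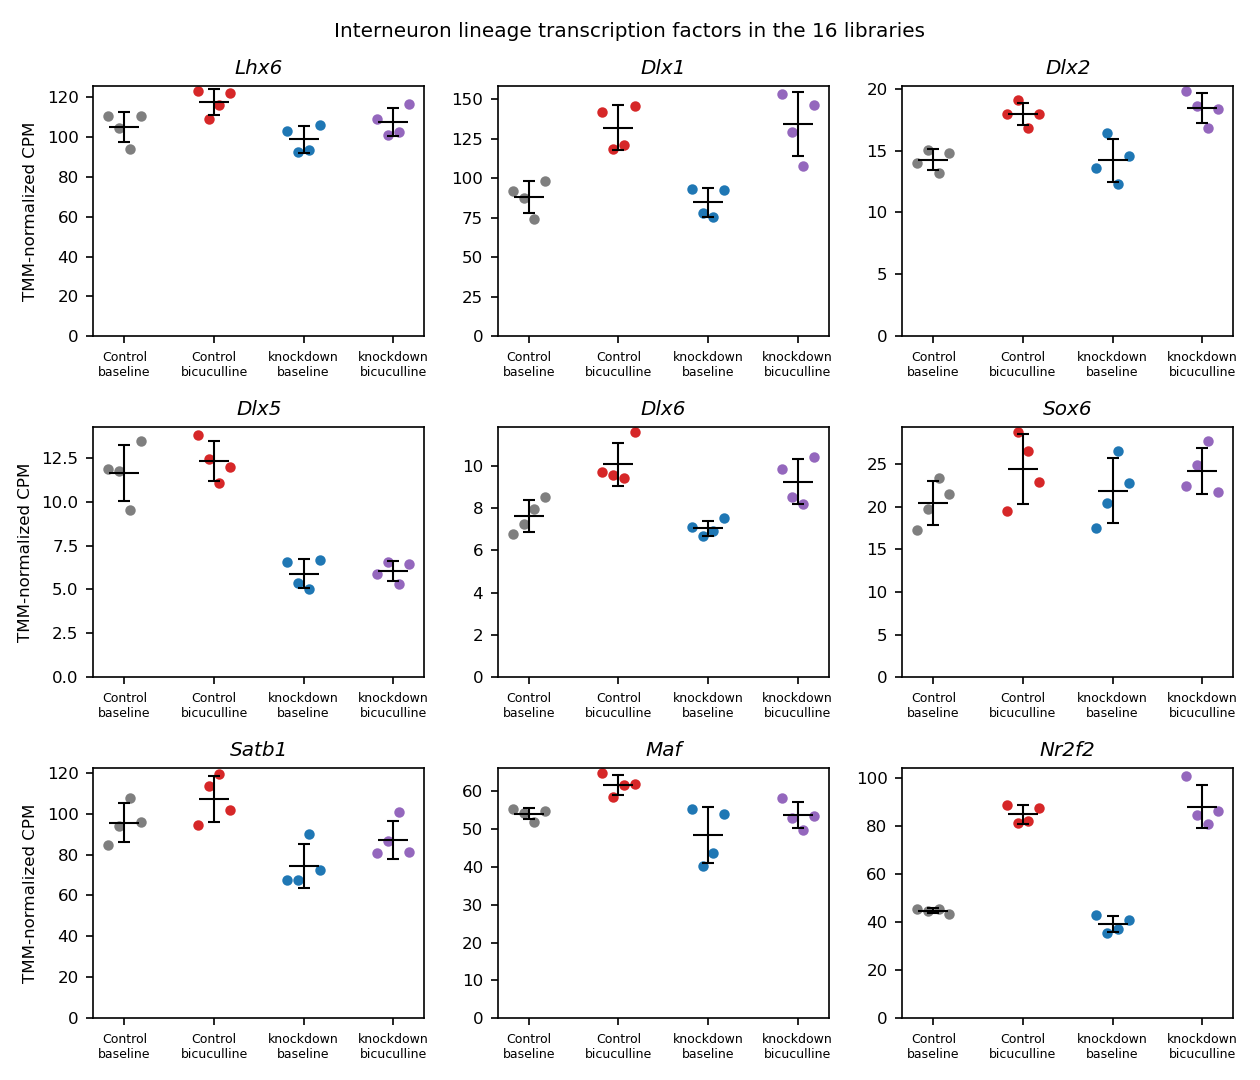
TMM-normalized CPM of each of the 9 factors in the 16 libraries, by shRNA (Control, or knockdown for Dnmt3a1-shRNA) and condition; points are libraries, and the line and bar are the mean and SD of 4. Dlx5 lay at 9.55 to 13.8 CPM in the 8 Control-shRNA libraries and at 5.02 to 6.67 CPM in the 8 Dnmt3a1-shRNA libraries, and Nr2f2 lay between 35.5 and 45.7 CPM in all 8 baseline libraries and between 80.8 and 101 CPM in all 8 with bicuculline.

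The response of the lineage factors to bicuculline was then compared within each shRNA. Nr2f2 and Dlx1 rose with both shRNAs, and the other 7 members did not pass both thresholds. All 9 log2 fold changes were above 0 with each shRNA under TMM scaling, but under TPM or scaling by library size alone, which put the median of all genes at -0.13 to -0.19, the signs of Lhx6, Dlx5, Satb1 and Maf turned with Control-shRNA and those of Lhx6, Dlx5, Sox6 and Maf with Dnmt3a1-shRNA. The median of the 9 was 0.25 with Control-shRNA, where that of all tested genes was 0.01, and 0.23 with Dnmt3a1-shRNA, where it was -0.01. The count of 2 of 9 stands beside 10.8% of all genes called higher and 11.1% lower with Control-shRNA, and 12.6% and 13.2% with Dnmt3a1-shRNA. By the adjusted p alone Dlx2 and Dlx6 were also higher, 4 of 9 members with each shRNA, where 19.5% and 20.8% of all genes were, but with Control-shRNA neither passed under TPM or library size alone. With the replicate number as a block, 8 members (all but Dlx5) were higher by the adjusted p alone with Control-shRNA and 6 with Dnmt3a1-shRNA (25.1% and 25.8% of all genes).

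Nr2f2 showed the largest response. With Control-shRNA it had 45.6, 44.7, 45.7 and 43.4 CPM in baseline and 89.0, 81.3, 82.1 and 87.5 CPM with bicuculline, a log2 fold change of 0.92 (SE 0.07, 95% interval 0.77 to 1.08, adjusted p = 2.08e-08). With Dnmt3a1-shRNA it had 43.1, 35.5, 37.3 and 41.0 CPM in baseline and 101.0, 84.8, 80.8 and 86.3 CPM with bicuculline, a log2 fold change of 1.17 (SE 0.07, 95% interval 1.01 to 1.32, adjusted p = 7.87e-10). All 8 libraries with bicuculline lay above all 8 in baseline. By TPM the level relative to Lhx6 was 0.396 ± 0.014 in baseline and 0.679 ± 0.071 with bicuculline for Control-shRNA, and 0.392 ± 0.021 and 0.768 ± 0.068 for Dnmt3a1-shRNA. Nr2f2 thereby moved from place 4 to place 3 in the order of TPM levels with each shRNA, changing places with Satb1. The libraries of Nr2f2 and Satb1 overlapped with Control-shRNA and bicuculline (46.8 to 54.9 and 34.5 to 49.3 TPM). They also overlapped with Dnmt3a1-shRNA in baseline (23.2 to 28.2 and 25.5 to 41.7 TPM), so these places do not differ beyond their spread. Nr2f1, its close relative COUP-TFI, also rose, by 0.91 with each shRNA (adjusted p = 1.55e-09 and 1.08e-09), from 96.7 ± 2.79 to 182 ± 5.79 CPM with Control-shRNA. The transcripts of Nr2f1 and Nr2f2 share 39 of the 8550 31-base words of Nr2f2. Nr2f2 is also made by cells outside the nervous system such as vessel-associated cells and fibroblasts. The 10 markers of endothelium, mural cells and fibroblasts summed to 42.0 to 75.3 TPM in baseline and 37.4 to 83.2 TPM with bicuculline for Control-shRNA, and to 44.3 to 92.0 and 50.7 to 87.4 TPM for Dnmt3a1-shRNA, ranges that overlap. The 9 of them that were tested had a median log2 fold change with bicuculline of 0.33 with Control-shRNA and 0.27 with Dnmt3a1-shRNA, where that of all genes was 0.01 and -0.01, and the endothelial marker Cldn5 was too low to test. Col1a2 and Pdgfrb were called higher with Control-shRNA and Kdr lower, and Col1a2 and Flt1 higher with Dnmt3a1-shRNA. For the knockdown Pdgfrb was called higher and Kdr lower in baseline, and Lum higher with bicuculline. The part of these cells in the Nr2f2 values was not tested.

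Dlx1 had 92.2, 87.7, 74.2 and 98.2 CPM in baseline and 142, 118, 121 and 146 CPM with bicuculline in the Control-shRNA libraries. Every library with bicuculline was above every library in baseline, and the log2 fold change was 0.58 (SE 0.11, 95% interval 0.34 to 0.82, adjusted p = 4.71e-04). With Dnmt3a1-shRNA it was 93.3, 77.8, 75.5 and 92.3 CPM in baseline and 153, 129, 108 and 146 CPM with bicuculline, a log2 fold change of 0.66 (SE 0.11, adjusted p = 1.16e-04). The call ended under TPM, at 0.35 with Control-shRNA and 0.41 with Dnmt3a1-shRNA, and with Control-shRNA also under scaling by library size alone, at 0.43. Its antisense partner Dlx1as moved the same way, from 10.4 ± 1.13 to 16.1 ± 2.18 CPM (log2 fold change 0.63, adjusted p = 0.00238) and from 7.84 ± 1.72 to 14.3 ± 2.61 CPM (0.87, adjusted p = 1.44e-04). Those 2 transcripts share words, so part of each count may belong to the other.

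Dlx2 and Dlx6 were higher by the adjusted p under TMM scaling but within the fold threshold. Dlx2, which works with Dlx1 in the progenitors, had 14.02, 15.1, 13.2 and 14.8 CPM in baseline and 17.9, 19.1, 16.9 and 17.96 CPM with bicuculline for Control-shRNA, a log2 fold change of 0.33 (SE 0.09, adjusted p = 0.00428). For Dnmt3a1-shRNA the value was 0.37 (adjusted p = 0.00159). Dlx6 had 6.78 to 8.53 CPM in baseline and 9.40 to 11.6 CPM with bicuculline for Control-shRNA, a log2 fold change of 0.40 (SE 0.10, adjusted p = 0.00421), and a value of 0.39 (adjusted p = 0.0048) for Dnmt3a1-shRNA. In both genes the libraries with bicuculline did not overlap those in baseline with either shRNA. The adjusted p depended on the scaling. With Control-shRNA Dlx2 was at 0.11 under log2(TPM + 1) (adjusted p = 0.355 by limma) and at 0.17 under library size alone (adjusted p = 0.115), and Dlx6 at 0.20 (adjusted p = 0.195) and 0.24 (adjusted p = 0.0737). With Dnmt3a1-shRNA Dlx2 missed the threshold under log2(TPM + 1), at 0.17 (adjusted p = 0.12), and Dlx6 under library size alone, at 0.24 (adjusted p = 0.075). Dlx6os1 was at 0.42 (adjusted p = 0.0356) and 0.49 (adjusted p = 0.0132), and its groups overlapped.

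Dlx5 was not called for bicuculline. Its log2 fold change was 0.08 (95% interval -0.16 to 0.32) with Control-shRNA and 0.04 (-0.22 to 0.30) with Dnmt3a1-shRNA, and neither passed the test. These intervals overlap those of Dlx2 and Dlx6, and the genes were not tested against each other. The ratio of Dlx1 to Dlx5 by TPM was 5.07 to 5.30 in the 4 Control-shRNA libraries in baseline, the tightest of the ratios examined, and 6.60 to 7.98 with bicuculline. With Dnmt3a1-shRNA it was 9.55 to 11.1 in baseline and 13.2 to 17.98 with bicuculline. The 4 groups did not overlap in this ratio, which ranked them from Control-shRNA in baseline to Dnmt3a1-shRNA with bicuculline.

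Lhx6, Maf, Satb1 and Sox6 did not pass the test of bicuculline. With Control-shRNA the log2 fold changes were 0.16 for Lhx6 (95% interval 0.02 to 0.31, adjusted p = 0.0656), 0.19 for Maf (0.01 to 0.37, adjusted p = 0.081), 0.17 for Satb1 (-0.05 to 0.39) and 0.25 for Sox6 (-0.03 to 0.54). With Dnmt3a1-shRNA they were 0.12, 0.15, 0.23 and 0.15. For Maf the Control-shRNA groups did not overlap, with 51.9 to 55.1 CPM in baseline and 58.4 to 64.8 CPM with bicuculline. Sox6 varied most between libraries, from 17.2 to 23.3 CPM in baseline and from 19.4 to 28.8 CPM with bicuculline for Control-shRNA. Sox6 is also a factor of the oligodendrocyte lineage, whose 8 markers summed to 81.2 to 188 TPM over the 16 libraries, with Sox10 too low to test.

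**Figure D3:**
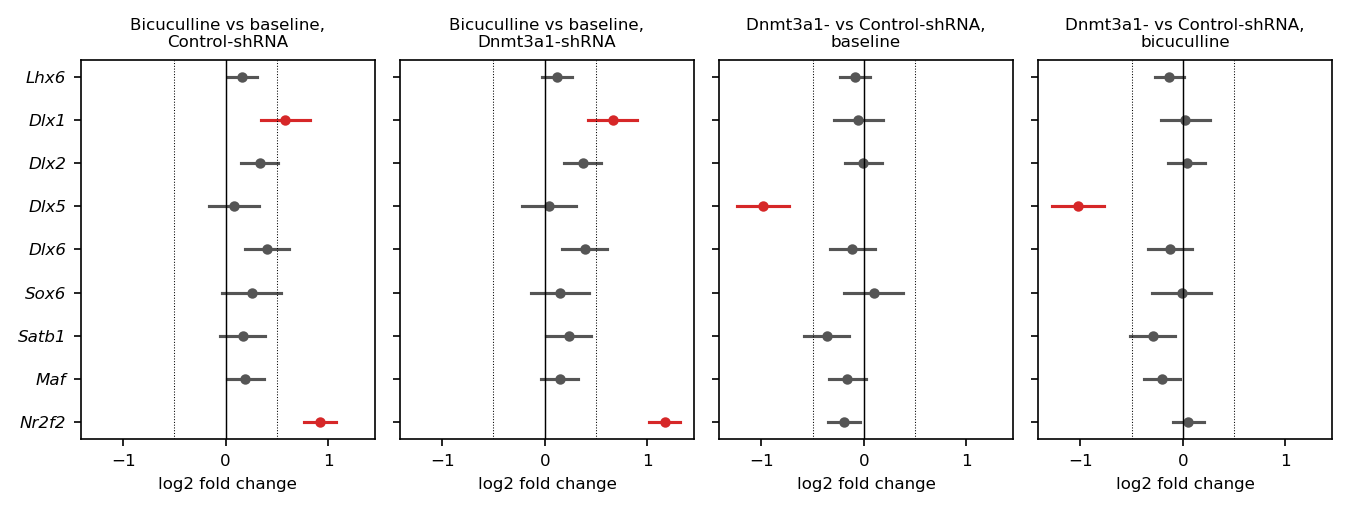
Log2 fold change of the 9 factors with its 95% interval in the 4 comparisons; red marks a call (adjusted p under 0.05 and beyond the dotted lines at 0.5), grey the rest. Nr2f2 (0.92 and 1.17) and Dlx1 (0.58 and 0.66) were called for bicuculline, and Dlx5 (-0.98 and -1.03) for the Dnmt3a1-shRNA.

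Whether the response to bicuculline differed between the shRNAs was tested as an interaction. It was called for 0 of the 9 members and for 0% of all tested genes by edgeR's quasi-likelihood test at an adjusted p under 0.05. At an unadjusted p under 0.05 it counted 1 member, Nr2f2, and 852 genes, 4.95% of all. The Nr2f2 difference was 0.25 (95% interval 0.03 to 0.46, adjusted p = 0.957). DESeq2 called 17 genes, voom with limma 0, and the fits with the replicate block and without a filter 3 each, with no member among them in any of these fits. For Dlx5 the 2 knockdown values, -0.98 and -1.03, came from separate libraries, and the interaction was -0.04. Both values rest on the same shRNA sequence and the same fit. Same-numbered libraries also correlated between the conditions, so the values may not be independent.

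The members were set beside 4 lists of genes of the same lineage. Of 20 other interneuron lineage transcription factors 15 were tested. With bicuculline 4 rose in Control-shRNA (Id2, Nr2f1 and Sp8 among them) and 1 fell (Bcl11b), with a list median of 0.13. Of all tested genes 10.8% were called higher there and 11.1% lower. Id2, a helix-loop-helix inhibitor found in neurogliaform cells, went from 68.3 ± 3.11 to 162 ± 29.2 CPM, a log2 fold change of 1.25 (adjusted p = 1.01e-07). Bcl11b, also called Ctip2, went from 96.6 ± 0.98 to 56.6 ± 9.67 CPM (-0.77). Sp8 was near the thresholds and lost its call when any of 4 libraries was left out. With Dnmt3a1-shRNA 5 rose and 2 fell, Bcl11b and Etv1, beside 12.6% and 13.2% of all genes. None of the 15 was called in either knockdown comparison, where the list medians were 0.05 and 0.04. In either direction 5.83% of all genes were called in baseline and 5.89% with bicuculline. At the adjusted p alone 2 of the 15 were called in baseline and 1 with bicuculline, beside 16.3% and 17.7% of all genes.

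More interneuron subtype markers than lineage factors were called for the Dnmt3a1-shRNA, a difference that was not tested. Other effectors showed less of it. Of the genes of GABA synthesis and transport 0 of 6 were called in either condition. Of the genes downstream of Lhx6 or the Dlx factors, 2 of 14 were called in baseline and 1 with bicuculline. Of 25 interneuron subtype markers 24 were tested. In baseline 7 were called lower (Cort, Crhbp, Npy, Tac1, Kcnc2, Pvalb and Sst) and 2 higher (Grin3a and Tacr1), with a list median of -0.16. Cort, the neuropeptide cortistatin, went from 12.8 ± 0.73 CPM with Control-shRNA to 4.46 ± 0.79 with Dnmt3a1-shRNA, a log2 fold change of -1.52 (adjusted p = 3.37e-07). Crhbp, a binding protein for corticotropin-releasing hormone made by somatostatin cells, went from 47.0 ± 5.13 to 19.3 ± 7.03 CPM (-1.29), and the neuropeptide Npy from 63.0 ± 13.9 to 30.3 ± 4.85 CPM (-1.05). In the study's own quantitative PCR of bicuculline-treated cultures, Crhbp and Npy did not reach significance with every Dnmt3a1-shRNA sequence used. Kcnc2, a potassium channel of fast-spiking cells, went from 79.0 ± 3.57 to 50.4 ± 6.67 CPM (-0.65). Sst at -0.52 lost its call without any of 3 libraries and Pvalb at -0.55 without any of 6. With bicuculline the same comparison called 4 lower (Cort -0.93, Npy -0.78, Crhbp -0.77 and Kcnc2 -0.59) and 0 higher. These counts stand beside the background of 4.07% and 3.9% of all genes called lower, and 1.76% and 2% called higher.

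Some markers of interneuron subtypes rose with bicuculline. Of the 24 subtype markers 6 rose with Control-shRNA (Cort, Tac1, Vip, Crhbp, Npy and Sst) and 7 with Dnmt3a1-shRNA, Reln in addition, and 0 fell, where 10.8% and 12.6% of all tested genes were called higher. The other 18 and 17 were not called. Cort went from 12.8 ± 0.73 to 26.5 ± 2.47 CPM with Control-shRNA (1.05) and from 4.46 ± 0.79 to 13.9 ± 2.20 CPM with Dnmt3a1-shRNA (1.64). Of 6 genes of GABA synthesis and transport Gad1 and Gad2 rose with both shRNAs, Gad1 by 0.61 and 0.73 and Gad2 by 0.65 and 0.82, and the GABA transporter Slc6a11 fell with Dnmt3a1-shRNA (-0.66). None of the 6 passed both thresholds in either knockdown comparison, although 1 did in baseline under TPM, under library size alone and without knockdown replicate 1. Under TPM the Control-shRNA counts fell to 3 subtype markers and 1 gene of GABA synthesis and transport, and that of the downstream genes described next to 2.

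Among 14 genes known to lie downstream of Lhx6 or the Dlx factors, the chemokine receptors that guide migrating interneurons moved most and in opposite directions. With Control-shRNA Cxcr4 went from 9.74 ± 0.71 CPM in baseline to 40.5 ± 11.6 with bicuculline (2.05, adjusted p = 1.45e-07), and Ackr3, also called Cxcr7, from 4.55 ± 0.36 to 1.25 ± 0.39 CPM (-1.86, adjusted p = 5.20e-07). With Dnmt3a1-shRNA the values were 1.75 and -1.57. In all 6 of the 14 rose and 1 fell with Control-shRNA, and 6 rose and 2 fell with Dnmt3a1-shRNA. Of all tested genes 10.8% were called higher and 11.1% lower with Control-shRNA, and 12.6% and 13.2% with Dnmt3a1-shRNA. Besides Cxcr4 the 6 included Gad1, Gad2, Npy and Sst, which other lists here also hold. For the knockdown 2 of the 14 fell in baseline, Npy and Sst, and 1 with bicuculline, Npy, which became 2 without Control-shRNA replicate 4 or without knockdown replicate 3, beside 4.07% and 3.9% of all genes called lower.

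**Figure D4:**
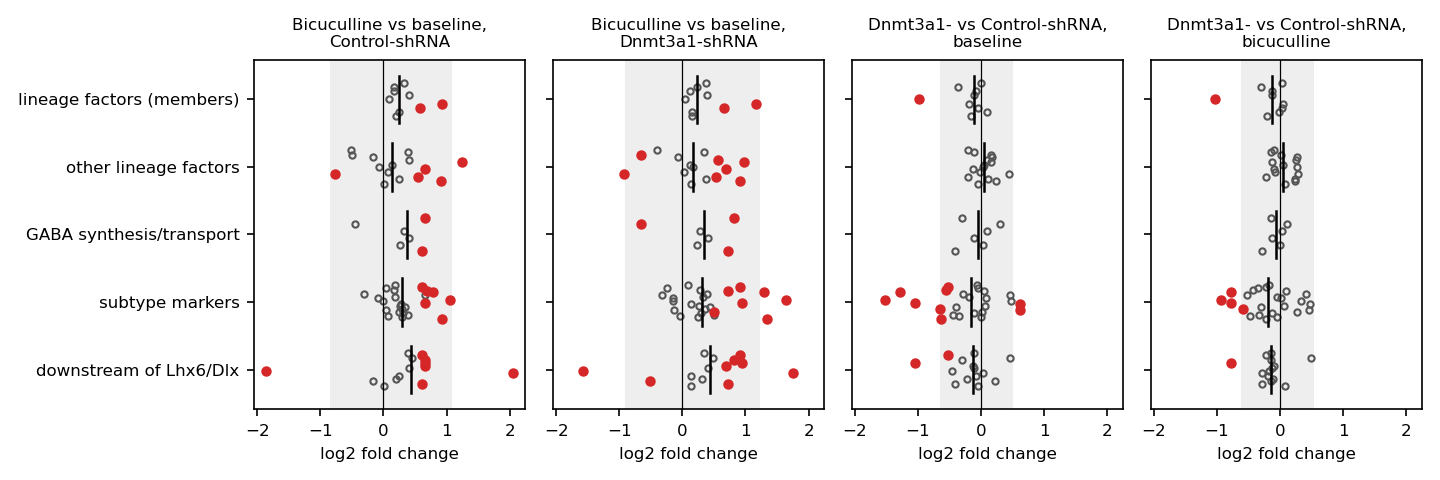
Log2 fold change of the tested genes of the 9 factors and of the 4 lists in the 4 comparisons; each circle is a gene, filled red where called, the black line is the list median, and the grey band spans the 5th to the 95th percentile of all tested genes. For the Dnmt3a1-shRNA Dlx5 stood alone among the factors at -0.98 and -1.03, while 7 subtype markers in baseline and 4 with bicuculline were called lower.

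Levels of other cell types were read beside the members. The 10 markers of excitatory neurons had a median knockdown value of 0.19 in baseline and 0.29 with bicuculline, with 0 called. Their sum in TPM was lower in baseline, 1756 to 1867 with Control-shRNA and 1534 to 1753 with Dnmt3a1-shRNA. Those ranges did not overlap, as for the summed TPM of the GABAergic markers. With bicuculline the excitatory sum was 1454 to 1741 and 1390 to 1723, ranges that overlap. The 8 astrocyte markers had a median knockdown value of 0.42 in both conditions, with S100b called higher. Summed astrocyte markers were 231 to 383 TPM with Control-shRNA and 234 to 463 with Dnmt3a1-shRNA in baseline. Of the 7 pan-neuronal markers Tubb3 was called higher in the knockdown in baseline (0.51), and the summed list lay at 5776 to 6397 TPM with Control-shRNA and 6273 to 6795 with Dnmt3a1-shRNA. Microglial markers were near 0, at 2.04 to 6.91 TPM in sum over the 16 libraries, with Cx3cr1, P2ry12, Aif1, Tmem119 and Mrc1 too low to test and Csf1r called lower in the knockdown. Of the 4 proliferation markers 2 were tested and 0 called. With bicuculline the astrocyte median was 0.32 with each shRNA, with Sox9 called higher (1.09 and 1.08). The part of these lists in the values of the 9 factors was not tested.

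For each member the 3 tested genes of at least 1 CPM with the most similar course over the 16 libraries were found, out of 13879 genes, by the root mean square difference of centred log2 CPM. For Dlx5 they were Gm10419 at 0.11, Tpm3 and Ahcyl2, none of them in the lists above. For Nr2f2 they were Dlc1 at 0.09, Unc45a and Sap18, and for Dlx1 Pitpna at 0.09, Rab6a and Cdk8. Sox6 had Npas3, another of the listed lineage factors, at 0.08, followed by Ntm and Adcy1. The glutamate receptor subunit Gria3 was among the 3 for Satb1, after Sntb1 and before St8sia5, and Gria1 among those for Maf, between Nedd4l and Zmynd11. Lhx6 had Txnl4a at 0.05, Brap and Afg3l2, Dlx2 had Tecr, Elp5 and AC102496.1, and Dlx6 had Pnma3, Bms1 and Dhx8. No member had another member among its 3.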

How the data were processed

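RNA of 16 libraries, 4 per group, was taken from the sample labels, which give group and replicate number. The authors trimmed the reads (Trim Galore 0.6.4, per the submitters' processing notes), quantified them with kallisto on GRCm38.p6 and deposited estimated counts per gene, not scaled, and TPM, scaled for transcript length and library total. Of 55385 identifiers 55144 had a symbol in GENCODE M21. Rounded estimated counts went into edgeR 4.0.16 under R 4.3.3 (TMM, filter on low counts by group, 1 quasi-likelihood fit of the 4 groups), and p-values were adjusted by Benjamini-Hochberg over 17222 genes. Calls needed an adjusted p under 0.05 plus a log2 change beyond 0.5 in size, except for the interaction, which needed the adjusted p alone. CPM compare a gene between groups, and TPM compare genes.

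The rule for the members uses no measured value, but members, lists and motifs were chosen with earlier results of these data known. All members were named, the called list genes of at least 1 CPM with the largest changes, at most 4 per list and comparison, and single further list genes after their values were seen. A few genes of the lists are not reported here by name. No set test was run. Replicates are separate preparations per the study, and no pair within a group agreed within sampling noise (7.88 to 44.5 for chi-square over its degrees of freedom). Deviations of same-numbered libraries correlated above 0.1 for every number between the conditions in Control-shRNA (0.142 to 0.221) and between the shRNAs in baseline (0.204 to 0.355). In the other comparisons they did so for 3 of 4 numbers. Numbers may therefore pair libraries, but correlations between differently numbered libraries were not computed, so the values do not settle it. The main fit took no account of such pairs. The replicate block was an alternative, as were voom with limma 3.58.1, DESeq2 1.42.0, its size factors, library sizes only, no filter, a minimum of 10 counts, limma on log2(TPM + 1) and log2(TPM + 0.1), the 2 groups alone, fold thresholds of 0 and 1, sense and antisense counts summed, and each library left out. Alternatives for the list genes were added after seeing the data. On counts simulated for the knockdown in baseline (16950 genes), 39 of 50 genes changed by 0.7 (log2) and 45 of 50 changed by 1 were called, and 8 unchanged genes were. For genes with many counts, totals of 28912697 to 29586355 limit precision little beside the spread between libraries. For members with few, such as Dlx5 with 148 to 414 counts per library, counting noise takes a larger part.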

Additional observations from a re-analysis of the deposited data

Results flagged for a closer look

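Of the 36 combinations of member and group, 1 held a library set apart from the other 3 of its group. Dlx6 in Control-shRNA with bicuculline was 11.6 CPM in replicate 4 and 9.40 to 9.68 CPM in the others, a gap past Dixon's critical value. Chance gives such a gap in about 1 of 20 groups. Without any 1 library the Dlx6 value for bicuculline with Control-shRNA lay between 0.31 and 0.46.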

How the results depend on the processing

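The members called were the same in number with voom and limma, DESeq2, its size factors, no filter, a minimum of 10 counts, the 2 groups alone, antisense counts summed and without any 1 library. In the fit with the replicate block, members called also numbered 2 for bicuculline with each shRNA, 1 for the knockdown in each condition and 0 for the interaction, and no other call changed. Scaling by library size alone or TPM left 1 member called for bicuculline with Control-shRNA, and log2(TPM + 1) or log2(TPM + 0.1) left 1 with Dnmt3a1-shRNA. Without a fold threshold 4, 4 and 2 members were called for bicuculline with each shRNA and for the knockdown in baseline, beside 41.4%, 46% and 16.3% of all genes. With a threshold of 1 they were 0, 1 and 0, beside 8%, 9.76% and 1.02%. For the knockdown with bicuculline Dlx5 was the only member called under either threshold, beside 17.7% and 1.07% of all genes. Library sizes alone moved the median of all genes to -0.15 and -0.16 for bicuculline and to -0.07 and -0.08 for the knockdown, and the share of higher genes among calls from 49.2% to 31.04% for bicuculline with Control-shRNA and from 48.9% to 32.8% with Dnmt3a1-shRNA, and from 30.2% to 14.2% for the knockdown in baseline and from 33.9% to 19.2% with bicuculline. Log2(TPM + 1) put these shares at 28.6%, 30.6%, 9.11% and 14.5%.

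The sign of some small values, none of them called, turned. Under log2(TPM + 1) and log2(TPM + 0.1) the bicuculline values with Control-shRNA were -0.0477 and -0.0482 for Lhx6, -0.111 and -0.116 for Dlx5, -0.0169 and -0.0172 for Satb1 and -0.0186 and -0.0193 for Maf, and with library sizes alone -0.0781 for Dlx5. With Dnmt3a1-shRNA they were -0.00991 and -0.0101 for Lhx6, -0.141 and -0.155 for Dlx5 and -0.0444 and -0.0461 for Maf, and with library sizes alone -0.0274 for Lhx6, -0.107 for Dlx5 and -0.00545 for Sox6. For the knockdown in baseline Sox6 was -0.0635 and -0.0759 under TPM, and Dlx2 0.00194 with DESeq2 and 0.00195 with its size factors. For the knockdown with bicuculline Dlx1 was -0.0509 and -0.0513, Dlx2 -0.0618 and -0.0657 and Nr2f2 -0.0487 and -0.0496 under TPM, and -0.0504, -0.0367 and -0.0197 with library sizes alone, and Sox6 was 0.00223 with DESeq2 and 0.00218 with its size factors. The interaction under TPM was 0.0378 and 0.0382 for Lhx6, 0.0982 and 0.105 for Dlx6 and 0.0413 and 0.0502 for Sox6, and for Dlx6 0.00137 at a minimum of 10 counts and 0.0669 with antisense counts summed.

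Leaving out single libraries turned the sign of 16 values. The ranges were -0.00508 to 0.154 (Dlx5) for bicuculline with Control-shRNA and -0.0331 to 0.101 (Dlx5) with Dnmt3a1-shRNA. They were -0.13 to 9.03e-04 (Dlx1), -0.0802 to 0.0599 (Dlx2) and -0.014 to 0.186 (Sox6) for the knockdown in baseline, and -0.0479 to 0.116 (Dlx1), -0.00433 to 0.0754 (Dlx2), -0.111 to 0.0762 (Sox6) and -0.0196 to 0.0936 (Nr2f2) with bicuculline. For the interaction they were -0.0865 to 0.00519 (Lhx6), -0.0243 to 0.116 (Dlx2), -0.117 to 0.0419 (Dlx5), -0.0753 to 0.0769 (Dlx6), -0.203 to 0.00167 (Sox6), -0.00887 to 0.17 (Satb1) and -0.122 to 0.0277 (Maf). Of 674 alternatives for called list genes, 79 lost the call, as did 25 of 832 that left out a library, and none turned the sign. The fewest counts per library were those of Dlx5 with Dnmt3a1-shRNA (148 to 198), followed by Dlx6 with Dnmt3a1-shRNA (202 to 282). Among the Control-shRNA libraries the fewest were those of Dlx6 (206 to 330).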
